A study of Homo sapiens with 6 samples.

Results

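The genes described here are 33 genes of sterol and fatty acid synthesis, chosen by symbol from the 29744 gene symbols of the count table. They cover the regulators of the pathway, the enzymes that turn acetyl-CoA into squalene and squalene into cholesterol, the enzymes of fatty acid synthesis, and the desaturases and elongases that modify the products. All 33 were measured and all 33 passed the filter on low counts, with 229 to 103044 counts per gene and library. RNA was sequenced from 3 lines of cultured human gastric tumour cells with 2 libraries each. HER2R is labelled resistant to a T cell bispecific antibody against HER2, and its source name is MKN45-HER2. CEAR is labelled resistant to such an antibody against CEACAM5, a surface glycoprotein, and its source name is MKN45-CEAR. MKN45 is an established line of human gastric cancer, labelled sensitive, from which the others derive. Such an antibody links a surface antigen of the tumour cell to the receptor complex of a T cell. No treatment is listed for any line, all 3 grew in DMEM/F-12 with 10% serum, and the labels do not say whether the resistant lines are clones or pools. Nor do they say whether the name MKN45-HER2 means HER2R or a modified parent line. The libraries of each line carry the numbers 1 and 2, and the labels do not say whether a number marks a culture, a passage, a day or only an order.

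For 21 of the 33 genes the library number went with a larger share of the spread in level than the line did, against 22.3% of all tested genes. In number 2 against number 1, tested over the 3 lines together, 21 of the 33 genes fell and 1, the mevalonate pathway kinase gene PMVK, rose, while 7.34% of all tested genes fell and 9.33% rose. The lipid desaturase gene SCD, the feedback regulator INSIG1 and the desaturase gene FADS2 fell by the most. With a term for the line only, the differences between lines that passed the test lay in 3 genes. In HER2R against MKN45 1 of the 33 was higher and 1 lower, against 4.89% and 4.85% of all tested genes. In CEAR against MKN45 1 was higher and 2 were lower, against 2.57% and 3.62%. HER2R against CEAR had 1 higher and 1 lower, against 7.32% and 6.75%, so these counts lie near those of all genes. ELOVL5, an elongase of polyunsaturated fatty acids, was lower in CEAR than in either other line and higher in HER2R than in MKN45. ELOVL6, an elongase of saturated and monounsaturated fatty acids, was higher in CEAR than in either other line. AACS, which activates acetoacetate, was lower in both resistant lines than in MKN45. Only the calls of ELOVL5 in CEAR against either other line were kept without each library in turn. When the number was taken into the fit as a term, 13 of the genes were lower in HER2R and 14 in CEAR than in MKN45, against 17.5% and 13.8% of all tested genes. Between libraries 2 the median log2 difference from MKN45 over the 33 genes was 0.040 in HER2R and -0.073 in CEAR. Between libraries 1 these medians were -1.12 and -0.83. MKN45 library 1 was the highest of all libraries for 27 of the 33 genes, against 14.3% of all tested genes.

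Cells make cholesterol and fatty acids from acetyl-CoA. The SREBP transcription factors, encoded by SREBF1 and SREBF2, are made as membrane proteins of the endoplasmic reticulum and are carried to the Golgi by the escort protein SCAP, where proteases release the active part. When sterols are plentiful, INSIG proteins hold SCAP back in the endoplasmic reticulum, so that genes of the pathway are transcribed less. Epithelial cells of the stomach and tumours derived from them use the products for membranes, lipid modification of proteins and storage.

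The promoters of the regulators and of the genes that the results turn on were read from the RefSeq table for GRCh38.p14, which gives 250 bases before and 50 bases after each gene's start. An entry was matched for 29 of the 33 genes, and ACAT2, FDFT1, SQLE and FASN had none. Both strands were searched for TCACNCCAC, a spelling of the sterol regulatory element to which SREBPs bind, and for CCAAT, the letters read by the factor NF-Y. The first motif was found in 1 of 39 promoters of the genes (2.56%), that of SREBF2, and in 1.13% of the 35116 promoters in the table. CCAAT or its reverse complement was found in 26 of the 39 promoters (66.7%), against 34.6% of all promoters in the table. Counted by gene, 22 of 29 genes (75.9%) had it in at least 1 promoter, against 39.7% of all genes in the table. In the SREBF2 promoter the matches do not overlap. A match describes these windows only. Shown are SREBF2 for its sterol element, SCD and INSIG1 for the lowest fold changes between the library numbers described below, MVD for 3 copies of CCAAT, and ELOVL5 for the clearest line difference. MVD did not have the most copies, since MVK and NSDHL had 5 matches each and MSMO1 had 4. Capitals mark the matches, with ATTGG being CCAAT on the other strand.
SREBF2 promoter, chr22:41832855-41833154, plus strand: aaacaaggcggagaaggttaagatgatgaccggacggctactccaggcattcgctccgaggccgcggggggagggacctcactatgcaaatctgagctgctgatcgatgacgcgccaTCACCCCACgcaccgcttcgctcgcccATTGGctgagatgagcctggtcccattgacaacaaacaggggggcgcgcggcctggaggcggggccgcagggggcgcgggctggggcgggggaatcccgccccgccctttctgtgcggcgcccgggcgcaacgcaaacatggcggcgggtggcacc
SCD promoter, chr10:100346983-100347282, plus strand: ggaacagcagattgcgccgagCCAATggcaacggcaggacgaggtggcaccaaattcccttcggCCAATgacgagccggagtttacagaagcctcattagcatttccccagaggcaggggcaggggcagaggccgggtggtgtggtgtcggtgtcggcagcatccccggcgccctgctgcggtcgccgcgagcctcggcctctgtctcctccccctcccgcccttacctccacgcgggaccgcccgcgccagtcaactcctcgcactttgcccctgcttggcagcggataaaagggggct
INSIG1 promoter, chr7:155297628-155297927, plus strand: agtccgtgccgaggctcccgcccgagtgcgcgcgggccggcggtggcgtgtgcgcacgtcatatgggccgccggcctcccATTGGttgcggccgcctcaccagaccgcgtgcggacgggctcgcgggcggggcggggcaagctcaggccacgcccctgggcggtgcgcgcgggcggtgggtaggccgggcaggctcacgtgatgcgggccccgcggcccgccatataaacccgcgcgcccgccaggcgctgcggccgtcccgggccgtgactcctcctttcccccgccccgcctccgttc
MVD promoter, chr16:88663042-88663341, minus strand: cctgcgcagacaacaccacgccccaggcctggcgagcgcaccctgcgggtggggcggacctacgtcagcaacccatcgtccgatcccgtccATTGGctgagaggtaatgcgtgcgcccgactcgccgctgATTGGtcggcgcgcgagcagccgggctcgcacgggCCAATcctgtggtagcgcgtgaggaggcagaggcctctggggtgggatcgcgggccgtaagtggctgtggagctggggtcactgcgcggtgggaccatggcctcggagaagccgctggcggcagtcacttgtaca
ELOVL5 promoter, chr6:53348901-53349200, minus strand: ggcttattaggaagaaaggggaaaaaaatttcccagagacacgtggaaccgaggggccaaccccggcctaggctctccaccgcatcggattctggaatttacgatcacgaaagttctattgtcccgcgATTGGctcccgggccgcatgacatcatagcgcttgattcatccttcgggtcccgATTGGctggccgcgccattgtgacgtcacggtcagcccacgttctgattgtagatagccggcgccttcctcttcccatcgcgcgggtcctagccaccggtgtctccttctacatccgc

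The 6 libraries held 39657353 to 57964246 counts, and levels are given in CPM, counts scaled to a common library total of the tested genes. Summed over 6 epithelial markers the level was 15452, 9549 and 12384 CPM in libraries 2 of HER2R, CEAR and MKN45, against 11795, 7900 and 10283 CPM in their libraries 1, so it was higher in number 2 in every line. The keratin genes KRT8 and KRT18 made up most of it, and CLDN4 alone of the 6 was lower in number 2 in every line, with 145, 74.1 and 199 CPM in libraries 2 of HER2R, CEAR and MKN45, against 159, 125 and 225 CPM in their libraries 1. Of 9 T cell markers, CD3D, CD2, CD8B and GZMB were at 0 in all libraries and the sum was at most 0.383 CPM. Fibroblast markers summed to 0.978 to 7.67 CPM, of which COL1A1 gave 0.591 to 7.44 CPM, while COL3A1 and DCN were at 0. Libraries 2 and 1 of each line are separate measurements, since a chi-square test of their counts gave 62.1 per degree of freedom in HER2R, 91.5 in CEAR and 131 in MKN45. Exons of 15 of the 33 genes overlap another gene in GENCODE release 29, 4 of them on the same strand, among these FADS2 with FEN1. A pseudogene of their own name exists for 6 (AACS, FDPS, CYP51A1, HSD17B7, SCD and FADS2). How the authors assigned reads to strands and copies is not given in the sources used here, so the values of these genes are uncertain to that extent. In bulk RNA a lower level per cell and fewer cells that make the RNA cannot be told apart.

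**Figure D1:**
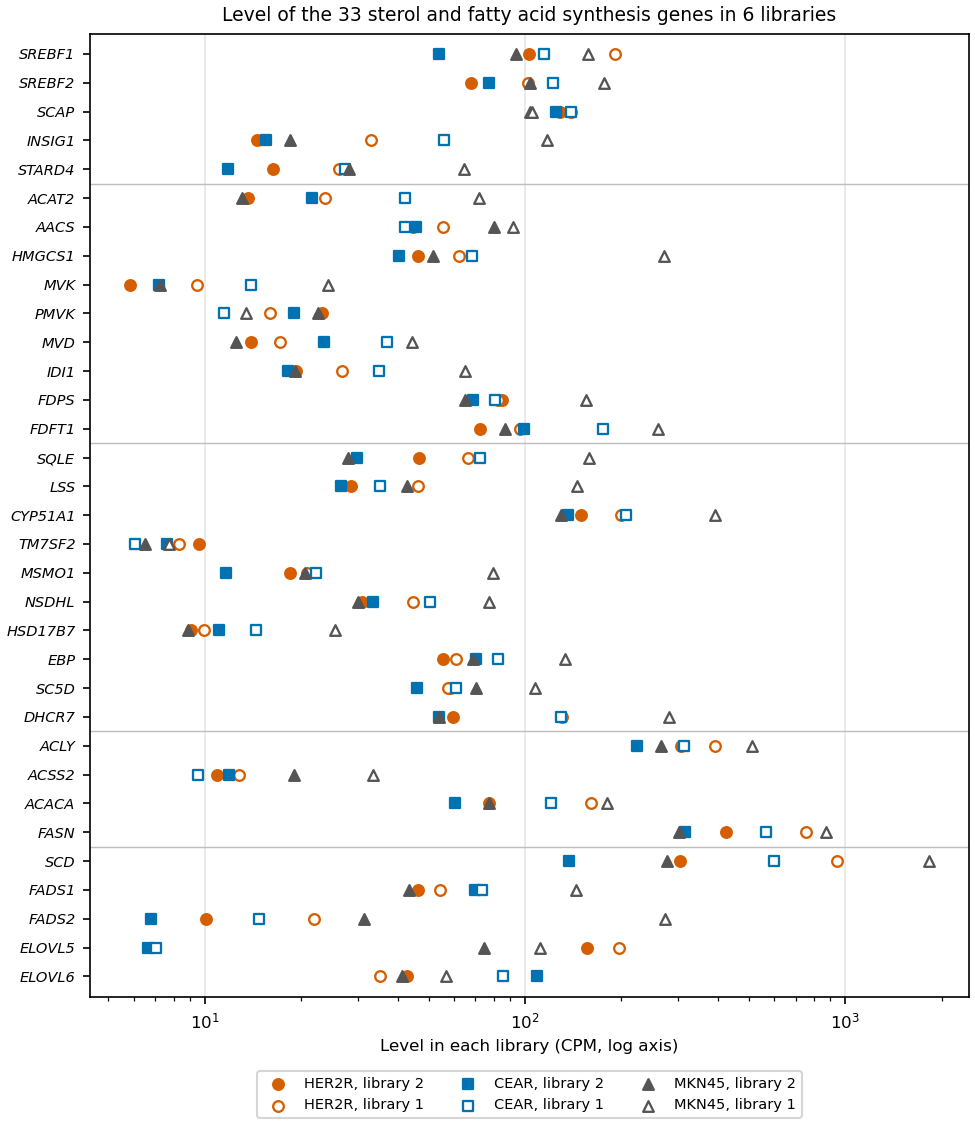
Level of each of the 33 genes in each library in CPM on a log axis. Filled symbols are libraries 2 and open symbols libraries 1, with HER2R as circles, CEAR as squares and MKN45 as triangles, and grey lines divide regulators, mevalonate enzymes, sterol ring enzymes, fatty acid synthesis and desaturases with elongases. The open triangle, MKN45 library 1, is the highest point for 27 of the 33 genes.

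Summed over all 33 genes the level was 2501 CPM in HER2R, 1995 CPM in CEAR and 2300 CPM in MKN45 for libraries 2, against 4099 CPM in HER2R, 3437 CPM in CEAR and 7040 CPM in MKN45 for libraries 1. All 3 libraries 2 thus lay below all 3 libraries 1, and library 1 of MKN45 stood above the other 5. It was the highest of the 6 libraries for 27 of the 33 genes, against 14.3% of all tested genes. Per kilobase of exon, SCD had the highest level of the 33 with a mean of 127 CPM per kb over the 6 libraries, followed by ACLY at 64.4, FASN at 57.7, CYP51A1 at 56.4 and EBP at 32.6 CPM per kb. The lowest level per kilobase was that of MVK at 1.75 CPM per kb.

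The comparison of number 2 with number 1 asked what the libraries of a number share apart from the line. It was fitted with edgeR over all 14958 tested genes with a term for each line, and a gene was called at a Benjamini-Hochberg adjusted p under 0.05. Separate cultures are not stated, and p-values then cover only the spread between these libraries, which may be technical. The median log2 fold change of the 33 genes was -0.91, against 0.016 over all tested genes. Number 2 was below number 1 in each of the 3 lines for 26 of the 33 genes, against 25.3% of all tested genes, and above it in each line for PMVK, against 26.9% of all tested genes. For 15 of the 33 genes all 3 libraries 2 lay below all 3 libraries 1 without overlap, against 6.78% of all tested genes. Fitted without a term for the line, edgeR called 0 of the 33, with 17 lower and 1 higher in number 2 at an unadjusted p under 0.05. That fit leaves the line differences in the spread, and its share over all tested genes is not given here. Its counts were therefore not read as results about these genes.

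Among the 5 control genes, SREBF1, SREBF2, INSIG1 and STARD4 fell in number 2. INSIG1, whose product retains SCAP, had 14.5 CPM in HER2R, 15.5 in CEAR and 18.5 in MKN45 for libraries 2, against 32.99 CPM in HER2R, 55.9 in CEAR and 117 in MKN45 for libraries 1. Its libraries 2 lay in a narrow band below all libraries 1, which were spread widely (log2 fold change -1.92, SE 0.24, edgeR adjusted p = 0.00262). SREBF1, which encodes the SREBP forms known for fatty acid genes, had 103 CPM in HER2R, 53.8 in CEAR and 93.9 in MKN45 for libraries 2, against 191 CPM in HER2R, 115 in CEAR and 157 in MKN45 for libraries 1 (log2 fold change -0.91, SE 0.093, edgeR adjusted p = 0.00139). SREBF2, which encodes the SREBP known for sterol genes, had 68.0 CPM in HER2R, 77.0 in CEAR and 103 in MKN45 for libraries 2, against 102 CPM in HER2R, 123 in CEAR and 176 in MKN45 for libraries 1 (log2 fold change -0.68, SE 0.082, edgeR adjusted p = 0.0025). For SREBF1 the numbers did not overlap, while for SREBF2 the MKN45 library 2 lay between the libraries 1 of HER2R and CEAR. STARD4, a carrier of cholesterol between membranes, was lower in number 2 in each line, at -0.68, -1.22 and -1.19 in log2 CPM in HER2R, CEAR and MKN45 (log2 fold change -1.04, SE 0.13, edgeR adjusted p = 0.00263). SCAP did not pass, with 129 CPM in HER2R, 125 in CEAR and 104 in MKN45 for libraries 2, against 139.6 CPM in HER2R, 139 in CEAR and 105 in MKN45 for libraries 1.

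Of the 9 genes from acetyl-CoA to squalene, 6 fell in number 2, PMVK rose, and AACS and FDPS did not pass. ACAT2, the cytosolic thiolase that joins acetyl-CoA units, had 13.6 CPM in HER2R, 21.7 in CEAR and 13.1 in MKN45 for libraries 2, against 23.7 CPM in HER2R, 42.2 in CEAR and 71.9 in MKN45 for libraries 1. The numbers did not overlap, and the widest gap was in MKN45 (log2 fold change -1.41, SE 0.28, edgeR adjusted p = 0.015). HMGCS1, the synthase of the next step, had 46.4 CPM in HER2R, 40.6 in CEAR and 51.7 in MKN45 for libraries 2, against 62.1 CPM in HER2R, 68.5 in CEAR and 273 in MKN45 for libraries 1. Its MKN45 library 1 stood far above the other 5 libraries (log2 fold change -1.19, SE 0.32, edgeR adjusted p = 0.04). The kinase MVK (-1.16), the isomerase IDI1 (-1.07), the squalene synthase FDFT1 (-0.94) and the decarboxylase MVD (-0.94) also fell, the values being log2 fold changes with edgeR adjusted p = 0.00916, 0.0138, 0.015 and 0.0377. PMVK, the phosphomevalonate kinase, had 23.2 CPM in HER2R, 19.1 in CEAR and 22.6 in MKN45 for libraries 2, against 16.0 CPM in HER2R, 11.5 in CEAR and 13.5 in MKN45 for libraries 1. It was the only one of the 33 with all libraries 2 above all libraries 1 (log2 fold change 0.67, SE 0.11, edgeR adjusted p = 0.0081). FDPS, the farnesyl diphosphate synthase, had 84.9 CPM in HER2R, 68.7 in CEAR and 65.2 in MKN45 for libraries 2, against 82.4 CPM in HER2R, 80.8 in CEAR and 156 in MKN45 for libraries 1, so that MKN45 alone showed a wide gap between its libraries. The call of MVD was lost without MKN45 library 1 or 2 (edgeR adjusted p = 0.0849 and 0.0648).

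Of the 10 genes of the sterol ring, 6 fell in number 2. DHCR7, the reductase of the last step to cholesterol, had 59.5 CPM in HER2R, 53.7 in CEAR and 54.0 in MKN45 for libraries 2, against 130.2 CPM in HER2R, 129.8 in CEAR and 282 in MKN45 for libraries 1. Libraries 2 of the 3 lines were alike and all below libraries 1 (log2 fold change -1.59, SE 0.22, edgeR adjusted p = 0.0039). SQLE, the squalene epoxidase, had 46.5 CPM in HER2R, 29.8 in CEAR and 28.1 in MKN45 for libraries 2, against 66.6 CPM in HER2R, 72.3 in CEAR and 159 in MKN45 for libraries 1. Its numbers did not overlap either (log2 fold change -1.43, SE 0.31, edgeR adjusted p = 0.0182). Lower in number 2 were also MSMO1 (-1.04), LSS (-0.96), CYP51A1 (-0.87) and NSDHL (-0.83), whose enzymes close the ring or take methyl groups off it, with edgeR adjusted p = 0.0373, 0.0243, 0.0239 and 0.0123 for these log2 fold changes. HSD17B7, EBP, SC5D and TM7SF2 did not pass. The reductase gene TM7SF2 was at 6.05 to 9.56 CPM in the 6 libraries with no common direction between the numbers. The isomerase EBP ranged from 55.3 to 133 CPM, the desaturase SC5D from 46.0 to 108 CPM and the reductase HSD17B7 from 8.85 to 25.5 CPM, each with its highest level in MKN45 library 1. Without CEAR library 1, MKN45 library 1 or MKN45 library 2 the call of MSMO1 was lost (edgeR adjusted p = 0.0596, 0.108 and 0.0745).

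Of the 4 fatty acid synthesis genes, ACLY, ACACA and FASN fell in number 2 and the acetyl-CoA synthetase gene ACSS2 did not pass. ACACA, the acetyl-CoA carboxylase that commits carbon to fatty acids, had 77.3 CPM in HER2R, 60.4 in CEAR and 77.1 in MKN45 for libraries 2, against 161 CPM in HER2R, 121 in CEAR and 180.0 in MKN45 for libraries 1. The drop was close to equal in the 3 lines, at -1.05, -1.0 and -1.22 in log2 CPM for HER2R, CEAR and MKN45 (log2 fold change -1.09, SE 0.085, edgeR adjusted p = 0.000482). FASN, the fatty acid synthase, had 424 CPM in HER2R, 315 in CEAR and 303 in MKN45 for libraries 2, against 755 CPM in HER2R, 568 in CEAR and 874 in MKN45 for libraries 1. No library 2 reached a library 1 (log2 fold change -1.07, SE 0.15, edgeR adjusted p = 0.0043). ACLY, which makes cytosolic acetyl-CoA from citrate, was lower by less (log2 fold change -0.60, SE 0.12, edgeR adjusted p = 0.0162), and its call was lost without MKN45 library 1 or 2 (edgeR adjusted p = 0.0525 and 0.051).

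Of the 5 desaturases and elongases, SCD and FADS2 fell in number 2. SCD, which introduces the first double bond into saturated fatty acids, had 306 CPM in HER2R, 137 in CEAR and 279 in MKN45 for libraries 2, against 943 CPM in HER2R, 598 in CEAR and 1825 in MKN45 for libraries 1. It had the lowest log2 fold change of the 33, with no overlap between the numbers (log2 fold change -2.15, SE 0.19, edgeR adjusted p = 0.00108). FADS2, the desaturase that opens the polyunsaturated pathway, had 10.1 CPM in HER2R, 6.79 in CEAR and 31.3 in MKN45 for libraries 2, against 21.9 CPM in HER2R, 14.8 in CEAR and 274 in MKN45 for libraries 1. Within each line number 2 was lower, but the MKN45 library 2 was above libraries 1 of HER2R and CEAR (log2 fold change -1.87, SE 0.37, edgeR adjusted p = 0.0139). FADS1, ELOVL5 and ELOVL6 did not pass. FADS1 and FADS2 lie on opposite strands of chromosome 11 with overlapping exons, and FADS1 had 46.2 CPM in HER2R, 69.7 in CEAR and 43.6 in MKN45 for libraries 2, against 54.4 CPM in HER2R, 73.2 in CEAR and 145 in MKN45 for libraries 1.

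**Figure D2:**
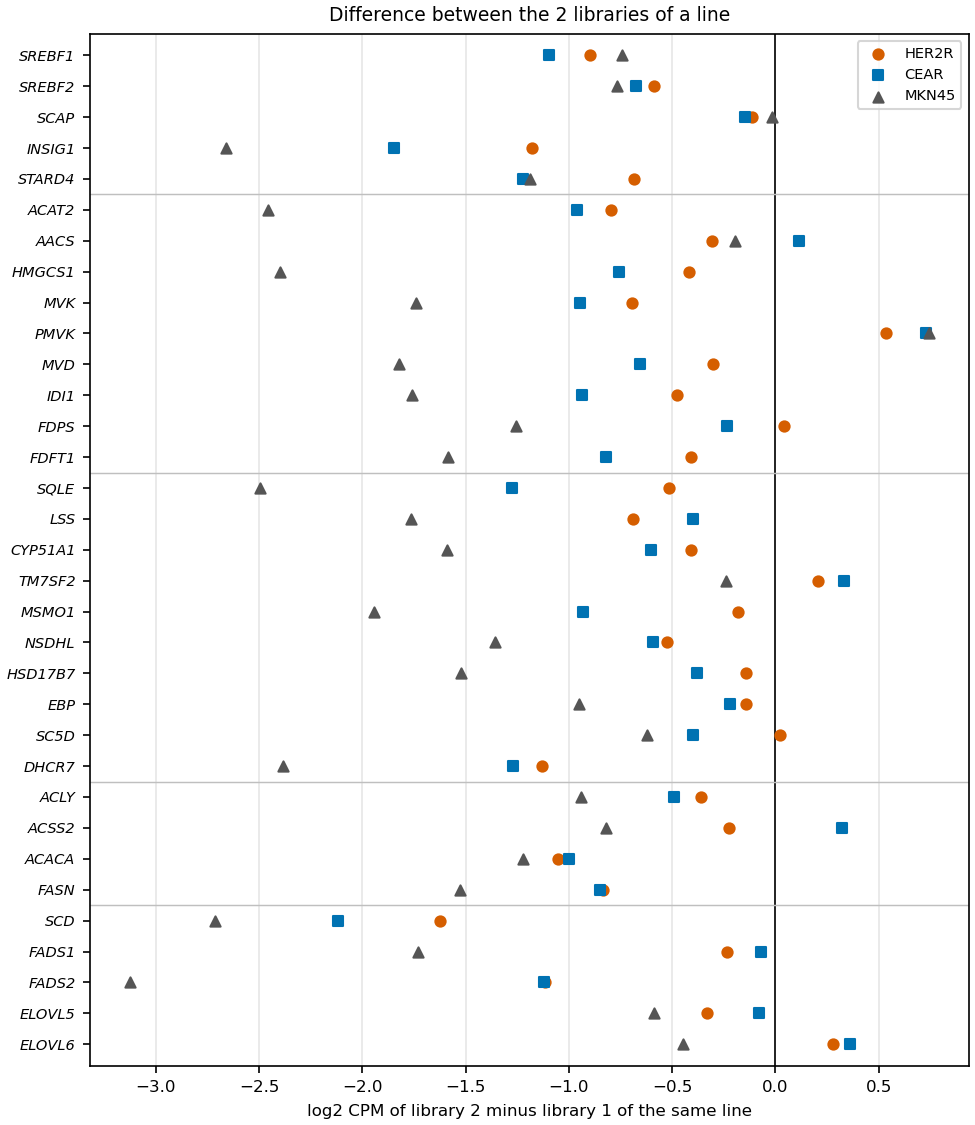
Difference in log2 CPM between library 2 and library 1 of the same line for each of the 33 genes, with 1 point per line and HER2R as circles, CEAR as squares and MKN45 as triangles. Points left of 0 are lower in library 2, and MKN45 is the leftmost point for 28 genes.

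Over the 33 genes the libraries lay farthest apart in MKN45. The median difference of number 2 minus number 1 over the 33 genes was -0.41 in HER2R, -0.65 in CEAR and -1.52 in MKN45 in log2 CPM, against 0.012, 0.0076 and 0.0048 over all tested genes. MKN45 had the lowest of the 3 differences for 28 of the 33 genes, against 35% of all tested genes. The order MKN45 below CEAR below HER2R held for 21 genes, against 20.4% of all tested genes. Whether the number difference depends on the line could not be tested, since a term for it leaves 0 residual degrees of freedom with 1 library per line and number. Without MKN45 library 2, so that the number difference rested on HER2R and CEAR, the log2 fold change was -0.88 for ACAT2, -0.59 for HMGCS1, -0.90 for SQLE, -0.55 for LSS, -0.51 for CYP51A1 and -1.12 for FADS2, all still called. The proliferation genes MKI67 and TOP2A, picked after their values were seen, also moved with the number. MKI67 had 463 CPM in HER2R, 361 in CEAR and 352 in MKN45 for libraries 2, against 949 CPM in HER2R, 730 in CEAR and 793 in MKN45 for libraries 1 (log2 fold change -1.07, SE 0.10, edgeR adjusted p = 0.00125). TOP2A was lower in number 2 as well (log2 fold change -0.73, SE 0.089, edgeR adjusted p = 0.00256). The part of these genes and of the epithelial marker level in the number difference was not tested.

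To set line and number side by side for each gene, the spread of its log2 CPM over the 6 libraries was divided into a share for the line, a share for the number and a remainder. The median shares over the 33 genes were 31.5% for the line, 45.9% for the number and 12.4% for the remainder, against 69.4%, 13.3% and 7.68% over all tested genes. The number held a larger share than the line for 21 of the 33 genes (63.6%), against 22.3% of all tested genes. More than 50% of the spread went with the number for 16 genes (48.5%), against 16.2% of all tested genes. It went with the line for 11 genes (33.3%), against 68.3% of all tested genes. ACACA (87.4%), FASN (83.5%), DHCR7 (81.9%) and PMVK (80.8%) had the highest number shares. ELOVL5 (99.1%), AACS (93.4%), SCAP (90.2%), ELOVL6 (90.1%) and ACSS2 (81.7%) had the highest line shares. SREBF1 and SREBF2 lay between, with 61.4% and 57.2% for the number and 37.0% and 42.1% for the line. A large remainder means that the number difference was unlike between lines, and FDPS (46.4%) and FADS1 (41.6%) had the largest ones.

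**Figure D3:**
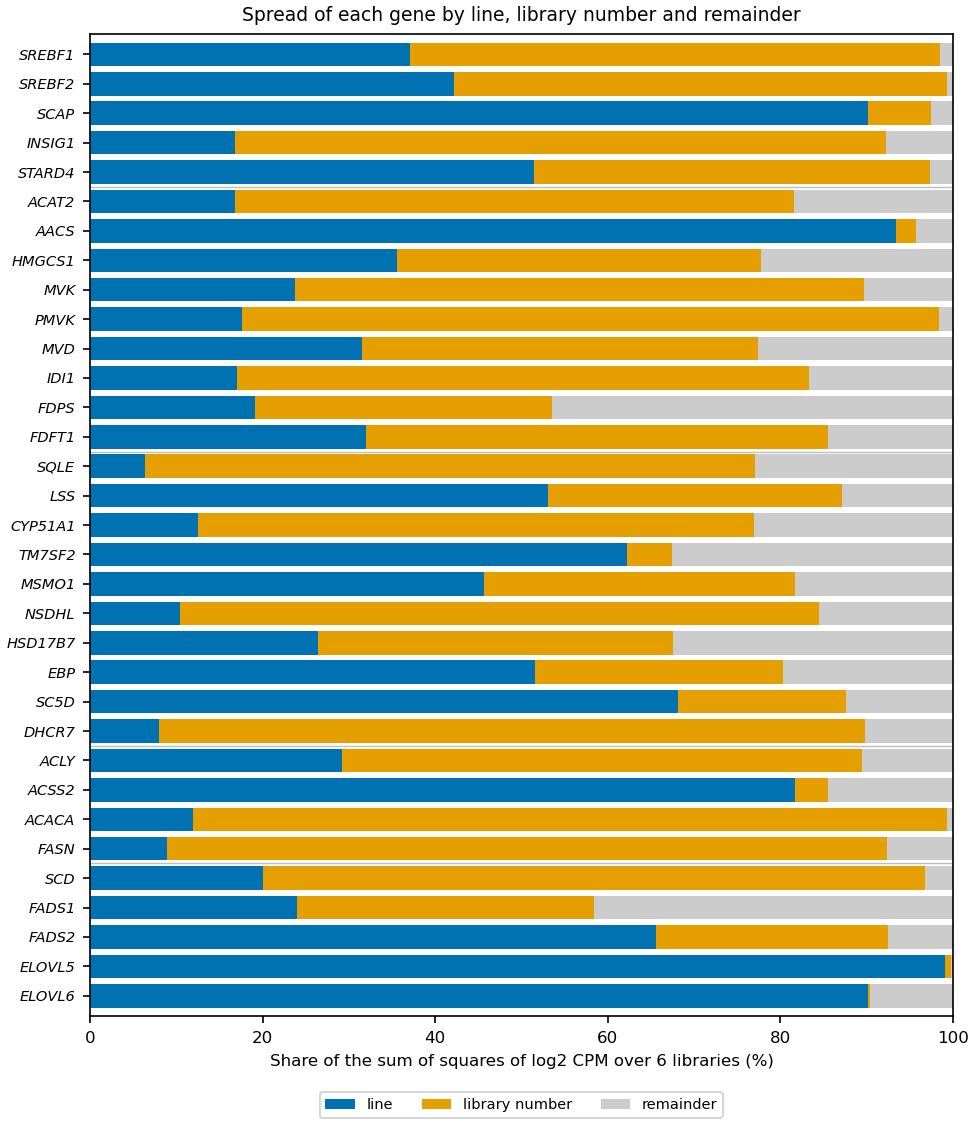
Share of the sum of squares of log2 CPM over the 6 libraries that goes with the line, with the library number and with neither, in percent, 1 bar per gene. Long blue bars are seen for ELOVL5, AACS, SCAP, ELOVL6 and ACSS2, and long orange bars for ACACA, FASN, DHCR7 and PMVK.

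HER2R was set against MKN45 to find what differs in a line resistant to the HER2 antibody. Over all 6 libraries with a term for the line only, ELOVL5 was higher and AACS lower in HER2R, which is 1 of 33 genes each way, against 4.89% of all tested genes higher and 4.85% lower. ELOVL5, on chromosome 6, 53267398 to 53349179, minus strand of GRCh38, had 157 and 197 CPM in HER2R, against 74.3 and 112 CPM in MKN45, with library 2 first. Both HER2R libraries were above both MKN45 libraries (log2 fold change 0.93, SE 0.22, edgeR adjusted p = 0.0489). Without 1 library at a time this call was kept only without MKN45 library 1, and without HER2R library 1 the adjusted p of edgeR was 0.227. AACS, the acetoacetyl-CoA synthetase on chromosome 12, 125065379 to 125143333, plus strand, had 44.6 and 55.3 CPM in HER2R, against 79.9 and 91.5 CPM in MKN45. The lines did not overlap (log2 fold change -0.78, SE 0.16, edgeR adjusted p = 0.032), and the call was kept only without CEAR library 2, with edgeR adjusted p from 0.0488 to 0.167 over the 6 omissions. The median log2 fold change of the 33 genes was -0.78, against -0.017 over all tested genes, but for only 7 of the 33 were both HER2R libraries below both MKN45 libraries, against 29.3% of all tested genes. Without MKN45 library 2 this fit set both HER2R libraries against MKN45 library 1 alone, so differences between the numbers entered the line difference. It put INSIG1 at -2.31, MVK at -1.67, FDFT1 at -1.63 and EBP at -1.20, against -1.52, -1.05, -1.04 and -0.80 with all 6 libraries. DESeq2 called 4 of the 33 lower, against 9.75% of all tested genes.

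With the number as a term in the fit, called the replicate block, 13 of the 33 genes were lower and 2 higher in HER2R, against 17.5% and 16.2% of all tested genes. Lower among the control genes were SREBF2 (log2 fold change -0.70, SE 0.10, edgeR adjusted p = 0.00153), STARD4 (-1.05) and INSIG1 (-1.14), while SCAP was higher (0.36, edgeR adjusted p = 0.0225). On the way to squalene AACS, HMGCS1, MVK and FDFT1 were lower, with log2 fold changes of -0.78, -1.24, -0.90 and -0.86. In the sterol ring LSS (-1.18), MSMO1 (-1.09), the isomerase EBP (-0.74) and the desaturase SC5D (-0.59) were lower. ACSS2, which makes acetyl-CoA from acetate, had 10.9 and 12.8 CPM in HER2R, against 19.0 and 33.6 CPM in MKN45, without overlap (log2 fold change -1.13, SE 0.24, edgeR adjusted p = 0.0089). FADS2, on chromosome 11, 61792980 to 61867354, plus strand, had 10.1 and 21.9 CPM in HER2R, against 31.3 and 274 CPM in MKN45. Both HER2R libraries were below both MKN45 libraries, and the fold was the widest of the 33 (log2 fold change -2.79, SE 0.44, edgeR adjusted p = 0.00239). In the fit without the number its edgeR adjusted p was 0.0887. FASN, SCD, DHCR7 and SQLE, among the genes with the clearest number difference, were called in neither fit. Without MKN45 library 1 the fit by line, which has no term for the number, set both HER2R libraries against MKN45 library 2 alone. Between libraries 2, HER2R minus MKN45 in log2 CPM was -0.35 for INSIG1, -0.16 for HMGCS1 and -0.31 for MVK. The fit put these genes at log2 fold changes of 0.37, 0.073 and 0.087, opposite in sign to the block values. It also put FDFT1 at -0.033, MSMO1 at -0.065, LSS at -0.19, EBP at -0.24, SC5D at -0.27, SREBF2 at -0.28, STARD4 at -0.40, ACSS2 at -0.67 and FADS2 at -0.97, against -1.04, -1.35, -1.33, -0.80, -0.62, -0.72, -1.12, -1.15 and -3.26 with all 6 libraries. The values of AACS, SCAP and ELOVL5 moved by less than 1.5 times without any 1 library.

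The comparison of CEAR with MKN45 asked the same of the CEACAM5 antibody. With a term for the line only, 1 of the 33 genes was higher and 2 were lower in CEAR, against 2.57% and 3.62% of all tested genes. ELOVL5 had 6.65 and 7.03 CPM in CEAR, against 74.3 and 112 CPM in MKN45. The CEAR libraries were alike and far below both MKN45 libraries (log2 fold change -3.77, SE 0.25, edgeR adjusted p = 0.00241), and the call was kept without each library in turn. ELOVL6, on chromosome 4, 110045846 to 110199199, minus strand, had 109 and 85.1 CPM in CEAR, against 41.4 and 56.5 CPM in MKN45. Both CEAR libraries were above both MKN45 libraries (log2 fold change 0.99, SE 0.21, edgeR adjusted p = 0.0471), but the call was lost without any 1 of the 6 libraries, with edgeR adjusted p from 0.0624 to 0.178. AACS had 45.7 and 42.2 CPM in CEAR, against 79.9 and 91.5 CPM in MKN45, without overlap (log2 fold change -0.96, SE 0.16, edgeR adjusted p = 0.0223), and it was kept only without HER2R library 1 or 2, with edgeR adjusted p from 0.0425 to 0.116 over the 6 omissions. The median log2 fold change of the 33 genes was -0.57, against -0.00019 over all tested genes, and for 7 genes both CEAR libraries lay below both MKN45 libraries, against 25.6% of all tested genes. Without MKN45 library 2 the fit by line called 7 of the 33 lower, against 1.37% of all tested genes. DESeq2 called 7 of the 33 lower, against 7.75% of all tested genes.

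With the replicate block 14 genes were lower and 2 higher in CEAR, against 13.8% and 12% of all tested genes. FADS2 had 6.79 and 14.8 CPM in CEAR, against 31.3 and 274 CPM in MKN45 (log2 fold change -3.37, SE 0.46, edgeR adjusted p = 0.00144). Its CEAR libraries were below both MKN45 libraries. SCD had 137 and 598 CPM in CEAR, against 279 and 1825 CPM in MKN45. The CEAR library was lower within each number, although the ranges of the lines overlapped (log2 fold change -1.34, SE 0.23, edgeR adjusted p = 0.00419). SREBF1 (-0.62), SREBF2 (-0.47) and STARD4 (-1.24) were lower and SCAP higher (0.34) among the control genes. AACS and HMGCS1 (-1.29), the ring enzymes LSS (-1.41), MSMO1 (-1.42) and SC5D (-0.73), and ACLY (-0.49), ACSS2 (-1.26) and ACACA (-0.47) were lower as well. ELOVL5 and ELOVL6 were called in both fits. Without MKN45 library 1 the fit by line, which has no term for the number, set both CEAR libraries against MKN45 library 2 alone. Between libraries 2, CEAR minus MKN45 in log2 CPM was -0.35 for HMGCS1, -0.25 for ACLY, -0.35 for ACACA and -1.02 for SCD. The fit put these genes at log2 fold changes of 0.085, 0.021, 0.24 and 0.41, opposite in sign to the block values. It also put SREBF2 at -0.043, SREBF1 at -0.14, MSMO1 at -0.28, SC5D at -0.39, LSS at -0.46, STARD4 at -0.52, ACSS2 at -0.82 and FADS2 at -1.53, against -0.49, -0.57, -1.57, -0.74, -1.61, -1.25, -1.30 and -3.82 with all 6 libraries. Without CEAR library 2 it set CEAR library 1 alone against both MKN45 libraries. It then put SREBF1 at -0.12, SREBF2 at -0.19, STARD4 at -0.76, ACLY at -0.31, ACACA at -0.088 and SCD at -0.82. The comparisons of HER2R and CEAR with MKN45 share the MKN45 libraries, so their values for these genes are not independent.

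**Figure D4:**
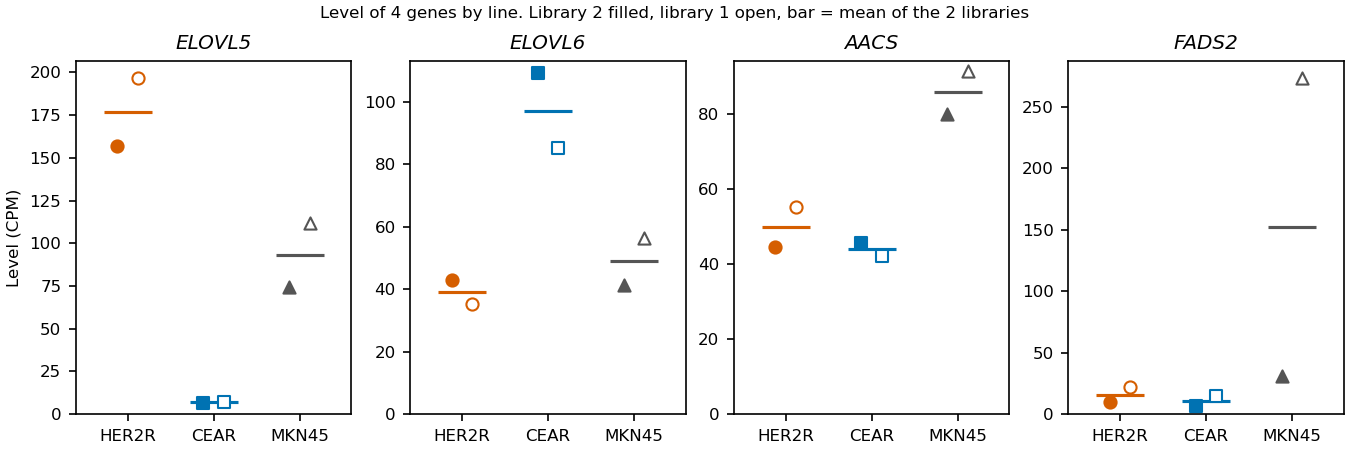
Level in CPM of ELOVL5, ELOVL6, AACS and FADS2 by line, with library 2 filled and library 1 open and a bar at the mean of both libraries. ELOVL5 is near 0 in CEAR at 6.65 and 7.03 CPM, ELOVL6 is highest in CEAR, and AACS and FADS2 are highest in MKN45, where the FADS2 libraries lie far apart at 31.3 and 274 CPM.

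The comparison of HER2R with CEAR set the resistant lines against each other. With a term for the line only, ELOVL5 was higher and ELOVL6 lower in HER2R, against 7.32% of all tested genes higher and 6.75% lower. ELOVL5 had 157 and 197 CPM in HER2R, against 6.65 and 7.03 CPM in CEAR (log2 fold change 4.69, SE 0.26, edgeR adjusted p = 0.000961), and it was called without each library in turn. ELOVL6 had 42.9 and 35.3 CPM in HER2R, against 109 and 85.1 CPM in CEAR. The HER2R libraries were both below the CEAR libraries (log2 fold change -1.31, SE 0.21, edgeR adjusted p = 0.0167), and the call was lost without HER2R library 1, HER2R library 2 or CEAR library 2, with edgeR adjusted p = 0.109, 0.0896 and 0.0705. With the replicate block 4 genes were higher and 2 lower in HER2R, against 19.7% and 18.6% of all tested genes. SREBF1 had 103 and 191 CPM in HER2R, against 53.8 and 115 CPM in CEAR. It was higher in HER2R within each number although the ranges overlapped (log2 fold change 0.83, SE 0.11, edgeR adjusted p = 0.00113). SCD was higher in HER2R in that fit (log2 fold change 0.93, SE 0.23, edgeR adjusted p = 0.0139), as was ACACA (log2 fold change 0.38, SE 0.10, edgeR adjusted p = 0.0201), while MVD was lower (log2 fold change -0.92, SE 0.30, edgeR adjusted p = 0.0428). The median log2 fold change of the 33 genes between the resistant lines was 0.12. Without HER2R library 1 the fit by line, with no term for the number, put SCD at -0.27, ACACA at -0.24 and SREBF1 at 0.28. Without CEAR library 2 it put them at 0.059, -0.028 and 0.35, against 0.76, 0.39 and 0.80 with all 6 libraries. Within numbers 2 and 1, HER2R minus CEAR in log2 CPM was 1.15 and 0.66 for SCD, 0.36 and 0.41 for ACACA, and 0.93 and 0.73 for SREBF1. MVD was at -0.60 without CEAR library 1, against -0.96 with all 6.

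The line differences were also read within each number. Between libraries 2 the median difference of HER2R minus MKN45 over the 33 genes was 0.040 in log2 CPM, with 13 genes below 0, against -1.12 between libraries 1, with 28 genes below 0 and 17 below -1. For CEAR minus MKN45 the median was -0.073 between libraries 2, with 19 genes below 0, against -0.83 between libraries 1, with 31 below 0 and 12 below -1. Over all tested genes these 4 medians lay between -0.023 and -0.00072. For HER2R minus MKN45, 51.6% of all tested genes were below 0 between libraries 2. Between libraries 1, 50.2% were below 0 and 5.99% below -1. For CEAR minus MKN45, 50% of all tested genes were below 0 between libraries 2. Between libraries 1, 50.1% were below 0 and 7.57% below -1. HER2R minus CEAR had medians of 0.14 between libraries 2 and -0.064 between libraries 1. These are single libraries, so no difference has a test. HMGCS1 shows the pattern, with HER2R minus MKN45 at -0.16 between libraries 2 and -2.13 between libraries 1. DHCR7 was alike, with 0.14 between libraries 2 and -1.12 between libraries 1 for HER2R minus MKN45. ELOVL5 kept its size, with CEAR minus MKN45 at -3.47 between libraries 2 and -3.98 between libraries 1. FADS2 was below 0 at both numbers, with -1.63 between libraries 2 and -3.64 between libraries 1 for HER2R minus MKN45, and -2.20 and -4.20 for CEAR minus MKN45. AACS also held its direction and size, with -0.84 between libraries 2 and -0.73 between libraries 1 for HER2R minus MKN45.

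**Figure D5:**
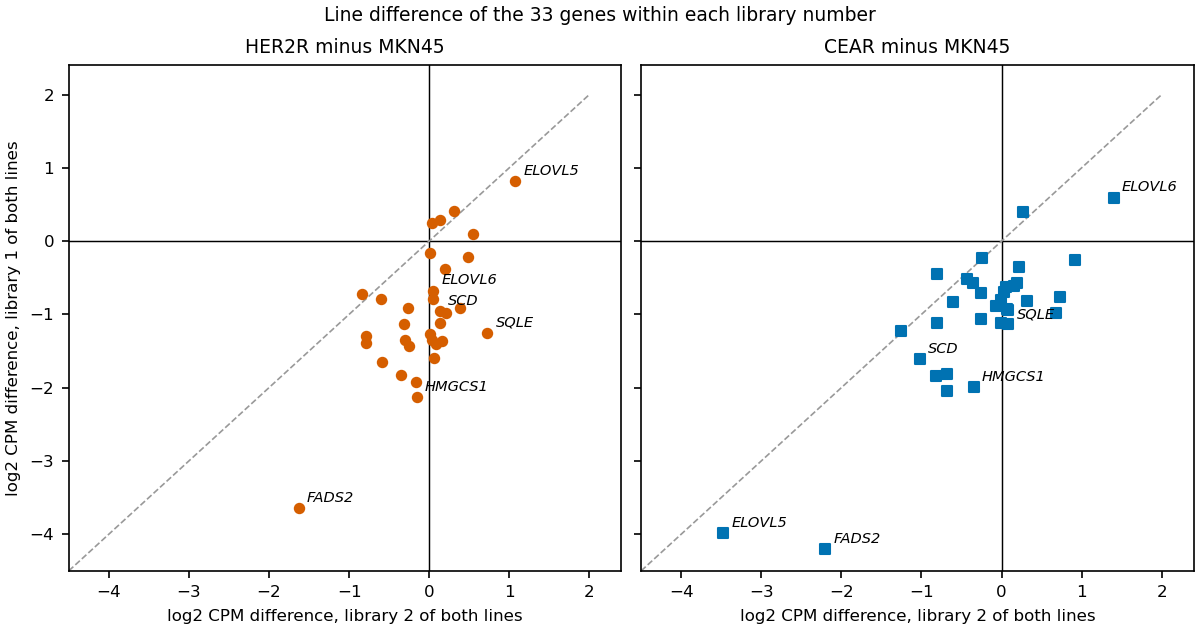
Line difference in log2 CPM of each of the 33 genes between libraries 2 (horizontal) and between libraries 1 (vertical), HER2R minus MKN45 on the left and CEAR minus MKN45 on the right, with the dashed line where both are equal. Most points lie below the dashed line, with medians of 0.040 and -0.073 between libraries 2 and -1.12 and -0.83 between libraries 1.

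Of 87 other genes of the pathway in 6 lists, 80 were tested, and 9 fell and 6 rose in number 2, against 7.34% and 9.33% of all tested genes, so that the counts lie near those of all genes. Among genes that control SREBP, LPIN1 (log2 fold change -0.99, SE 0.13, edgeR adjusted p = 0.00358) and RNF139 (-0.37) fell and NR1H2, an oxysterol receptor gene, rose (log2 fold change 0.58, SE 0.084, edgeR adjusted p = 0.0048). Among 19 tested genes of fatty acid activation and elongation, the acyl-CoA synthetase genes ACSL1 (-0.89), ACSL3 (-0.71) and ACSL4 (-0.54), the citrate carrier gene SLC25A1 (-0.41) and MCAT (-0.49) fell, and FADS3 (0.82) and SCD5 (0.44) rose. DGAT2, which makes triglyceride, had 35.2 CPM in HER2R, 35.0 in CEAR and 47.2 in MKN45 for libraries 2, against 18.4 CPM in HER2R, 16.8 in CEAR and 25.3 in MKN45 for libraries 1. Its libraries 2 were all above its libraries 1 (log2 fold change 0.96, SE 0.10, edgeR adjusted p = 0.00133). LBR, a sterol reductase of the nuclear envelope, fell (log2 fold change -0.70, SE 0.11, edgeR adjusted p = 0.00617), as did the sterol carrier gene OSBP (-0.31). Of 11 tested genes of fatty acid oxidation, PPARA (0.50) and ACADVL (0.41) rose.

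Between lines 3 of these 80 genes were higher and 5 lower in HER2R than in MKN45, 2 higher and 3 lower in CEAR than in MKN45, and 3 higher and 8 lower in HER2R than in CEAR. Over all tested genes these shares were 4.89% and 4.85%, 2.57% and 3.62%, and 7.32% and 6.75%, so the counts of the 80 lie near the background. With the replicate block the counts were 10 higher and 21 lower, 7 higher and 17 lower, and 16 higher and 18 lower, against 16.2% and 17.5%, 12% and 13.8%, and 19.7% and 18.6% of all tested genes. The values that follow are from the fit by line, and each gene named was also called with the block. SCARB1, a receptor for lipoprotein cholesterol, was lower in HER2R (log2 fold change -1.04, SE 0.18, edgeR adjusted p = 0.0236) and in CEAR (log2 fold change -0.94, SE 0.18, edgeR adjusted p = 0.0359) than in MKN45. Higher in HER2R than in MKN45 were MID1IP1 (0.78), a partner of acetyl-CoA carboxylase, STARD3 (0.85) and HADHB (0.59), and lower were PCYT2 (-1.11), C12orf49 (-0.59), PTPLB (-0.76) and HADH (-0.69). ACSL1 had 7.12 and 9.76 CPM in CEAR, against 31.9 and 101 CPM in MKN45, without overlap (log2 fold change -2.99, SE 0.54, edgeR adjusted p = 0.03). MBTPS1, the first protease that cleaves SREBPs, had 145 and 180.3 CPM in CEAR, against 71.7 and 82.4 CPM in MKN45. Both CEAR libraries were above both MKN45 libraries (log2 fold change 1.08, SE 0.17, edgeR adjusted p = 0.0206). NR1H3, the other oxysterol receptor gene, was higher in CEAR than in MKN45 (log2 fold change 1.15, SE 0.17, edgeR adjusted p = 0.017) and lower in HER2R than in CEAR (log2 fold change -1.81, SE 0.18, edgeR adjusted p = 0.00503), and AGPAT1 was lower in CEAR than in MKN45 (-0.57). In HER2R against CEAR, ACSL5 (1.21), ACSL4 (1.26) and HADHA (0.60) were higher, and MBTPS1 (-0.93), PTPLAD1 (-0.70), ACADS (-1.02), LPIN3 (-1.0), PCYT2 (-0.82) and PTPLB (-0.73) were among the lower genes.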

How the data were processed

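Total RNA of 3 cultured lines, with no treatment listed, was sequenced in 6 libraries. RNA isolation was by RNeasy and the libraries were stranded and ribosome-depleted, per the labels' protocols. The authors deposited whole-number read counts for each gene symbol, not normalised. GRCh38 and limma are named, with no role, per the submitters' processing notes, and aligner, counting program and gene annotation were not given in the sources used here. Of 29744 symbols, filterByExpr by line kept 14958. edgeR 4.0.16 in R 4.3.3 fitted quasi-likelihood models (TMM, legacy off) to all 6 libraries. The model with a term per line had 3 residual and 3.51 prior degrees of freedom, and the model with the library number added, the replicate block, had 2 and 6.34. The block model gave the test of number 2 against 1. Benjamini-Hochberg adjustment ran over the 14958 tested genes. SE values are the absolute log2 fold change divided by the root of F. Differences between single libraries and shares of the spread use log2 CPM with a prior count of 2, on TMM-scaled totals.

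Over all tested genes, number 2 minus number 1 was correlated from line to line, at 0.355 for HER2R and CEAR, 0.378 for HER2R and MKN45 and 0.545 for CEAR and MKN45, so the numbers were taken to pair the libraries, as a pattern of the data and not of the labels. Block counts stand beside the counts of calls, and block values beside the genes of the 33 whose call they change. The 33 genes, the other lists and the tests were chosen with earlier results of these data known. Of each other list, up to 4 called genes per direction and comparison were named, those with the smallest adjusted p, and 1 gene so chosen is not reported here. The methods were tested on simulated data. Alternatives were DESeq2 1.42.0, voom of limma 3.58.1, RLE factors, totals alone as the scale, the absence of a low-count filter, a filter at 1 CPM, the compared lines alone, each library or line left out, and, chosen after seeing the data, the legacy quasi-likelihood method. Exon overlaps and lengths came from GENCODE release 29.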

Additional observations from a re-analysis of the deposited data

Results flagged for a closer look

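In 3 of the 33 genes a line difference pointed in opposite directions at the library numbers, by at least 0.5 in log2 CPM each way. SQLE had a HER2R minus MKN45 difference of 0.73 between libraries 2 and -1.25 between libraries 1. ACAT2 had a CEAR minus MKN45 difference of 0.73 between libraries 2 and -0.77 between libraries 1. FADS1 had a CEAR minus MKN45 difference of 0.68 between libraries 2 and -0.98 between libraries 1. With 1 library per line and number, the difference between the numbers was not tested.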

How the results depend on the processing

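Counts of the 33 genes called in a line comparison rested on whether the library number was in the fit. With the replicate block they were 2 higher and 13 lower in HER2R against MKN45, 2 higher and 14 lower in CEAR against MKN45, and 4 higher and 2 lower in HER2R against CEAR. Over all tested genes the block called 16.2% and 17.5%, 12% and 13.8%, and 19.7% and 18.6%. DESeq2 called 4 lower in HER2R and 7 lower in CEAR against MKN45, where it called 9.75% and 7.75% of all tested genes lower. With no filter on low counts, with the legacy method and with the compared lines alone, 0 were higher in HER2R and 0 in CEAR against MKN45, and with the compared lines alone 0 were lower in HER2R, where edgeR gave an unadjusted p under 0.05 to 2 higher genes in each of these and to 7 lower ones. Leaving out each library gave 0 to 1 higher and 0 to 6 lower in HER2R against MKN45, 0 higher and 1 to 7 lower in CEAR against MKN45, and 0 to 1 lower in HER2R against CEAR. The counts of 6 and 7 came without MKN45 replicate 2. In number 2 against 1, fitting the number without the line called 0 higher and 0 lower (1 and 17 at an unadjusted p under 0.05), and leaving out CEAR called 0 higher (1 at an unadjusted p). The fit without the line leaves the line differences in the spread, so its counts were not read as results about these genes. Leaving out each library or line otherwise gave 18 to 25 lower, and the other settings 19 to 22. With all 6 libraries and both terms, 7.34% of all tested genes were lower.

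Some log2 fold changes reversed when 1 library was left out of the fit by line. Without MKN45 replicate 1 this held in HER2R against MKN45 for INSIG1 (range -2.31 to 0.37), HMGCS1 (-2.34 to 0.073) and MVK (-1.67 to 0.087), and in CEAR against MKN45 for HMGCS1 (-2.33 to 0.085), ACLY (-0.93 to 0.021), ACACA (-1.09 to 0.24) and SCD (-2.94 to 0.41). Without HER2R replicate 1 it held in HER2R against CEAR for SCD (-0.27 to 2.18) and ACACA (-0.24 to 0.98), which was also -0.03 without CEAR replicate 2. None of these was called in the fit by line. That fit has no term for the number, so a line left with 1 library was set against lines with both numbers. Read within each number, none of these differences changed sign. For SCD, CEAR minus MKN45 was -1.02 between libraries 2 and -1.61 between libraries 1, and HER2R minus CEAR was 1.15 and 0.66. The part of the number in the reversals was not tested. With 2 libraries per line, a line left with 1 is assumed to vary like the others.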
